A study of Mus musculus with 18 samples.

Results

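Border-associated macrophages were selected here from single-nucleus RNA-seq of the prefrontal cortex (PFC) and hippocampus (Hip) in mice. These cells are the macrophages of the brain's edges: they sit in the meninges, in the spaces around blood vessels and in the choroid plexus, whereas microglia sit within the tissue. They carry scavenger and mannose receptors, take up material from the fluid and blood that pass by them, and include Lyve1-bearing and MHC class II-bearing forms. A nucleus was a member when it held at least 3 UMIs (unique molecular identifiers, that is counted transcripts) of Mrc1, F13a1, Cd163 and Pf4 together, and when that sum was at least 2 times its UMIs of 9 genes that mark neurons, oligodendrocytes, their precursors, astrocytes and endothelium (Slc17a7, Gad1, Gad2, Mog, Mag, Pdgfra, Aqp4, Gja1 and Flt1). The rule found 222 members among 138000 nuclei, 131 in the Hip and 91 in the PFC.

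All mice were harvested at 8 weeks of age, and 3 groups of 3 were compared. Germ-free (GF) mice lived in flexible film isolators without a gut microbiome. Specific pathogen free (SPF) mice carried one. Colonized germ-free (CGF) mice were GF mice that were housed with SPF mice in an isolator from a juvenile age until harvest, so that they shared the germ-free start with the GF group. The labels name no gene deletion and no drug, give the group name as the strain, and mention behavioural tests. Each of the 9 mice gave 1 Hip and 1 PFC library. The frozen tissue was a brain region and not dissected meninges or choroid plexus, so the members were the border cells that came along with it.

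The 18 libraries held between 20336250 and 71463928 UMIs, and their median UMIs per nucleus ran from 2353 to 7579. Depth followed the groups in the PFC, where the GF libraries had medians from 6795.5 to 7426.5 UMIs, the SPF libraries from 3037 to 3208 and the CGF libraries from 2353 to 3035.5. In the Hip the gaps were smaller. There the GF libraries had medians from 4678 to 5905, all below the SPF libraries at 6172.5 to 7087. The CGF libraries ran from 5460 to 7579 and overlapped both. Pairs of libraries shared between 6 and 29 cell barcodes with a median of 15, and 5 members carried a barcode that was present in another library, but none of these barcodes was a member in both. Members were compared with 3007 microglia, nuclei with at most 1 UMI of Mrc1 and F13a1 and at least 3 of P2ry12, Csf1r and Inpp5d, under the same limit on the 9 other genes.

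The rule rests on 4 genes, and the stretches before their start sites are shown because these genes define the cells. Mrc1 encodes the mannose receptor, F13a1 the A chain of clotting factor XIII, Cd163 the receptor for haptoglobin-bound haemoglobin, and Pf4 the chemokine platelet factor 4. The sequences are the 250 bases before the annotated start in RefSeq (GRCm38.p6), at chr2:14229164-14229413 on the plus strand for Mrc1, chr13:37050245-37050494 on the minus strand for F13a1, chr6:124304401-124304650 on the plus strand for Cd163 and chr5:90772185-90772434 on the plus strand for Pf4. Capitals mark GAGGAA, the core of the motif bound by the macrophage factor PU.1, on either strand (TTCCTC on the strand shown).
Mrc1: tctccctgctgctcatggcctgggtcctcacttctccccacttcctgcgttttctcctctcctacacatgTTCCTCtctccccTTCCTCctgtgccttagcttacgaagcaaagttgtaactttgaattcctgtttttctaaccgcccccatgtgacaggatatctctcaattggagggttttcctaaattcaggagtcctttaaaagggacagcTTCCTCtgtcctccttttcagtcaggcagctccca
F13a1: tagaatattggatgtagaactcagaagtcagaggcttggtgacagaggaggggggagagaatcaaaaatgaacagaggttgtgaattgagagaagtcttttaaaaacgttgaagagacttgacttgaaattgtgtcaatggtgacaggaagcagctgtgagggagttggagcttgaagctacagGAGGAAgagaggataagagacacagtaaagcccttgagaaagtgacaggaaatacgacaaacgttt
Cd163: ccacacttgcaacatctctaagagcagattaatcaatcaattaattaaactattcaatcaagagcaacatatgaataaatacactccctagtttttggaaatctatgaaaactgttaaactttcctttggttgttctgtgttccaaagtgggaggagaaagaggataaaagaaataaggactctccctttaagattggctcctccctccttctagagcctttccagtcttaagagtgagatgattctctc
Pf4: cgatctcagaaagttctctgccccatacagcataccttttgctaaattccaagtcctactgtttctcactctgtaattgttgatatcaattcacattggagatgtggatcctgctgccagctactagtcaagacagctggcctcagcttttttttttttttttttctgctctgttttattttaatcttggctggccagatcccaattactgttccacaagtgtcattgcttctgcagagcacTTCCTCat
Mrc1 held 3 matches, F13a1 and Pf4 1 each, and Cd163 none. A second F13a1 start held none. Of 32851 promoters in the same table, 23.3% held at least 1 match within 250 bases, so a match is common and is given only as a description.

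F13a1 and Mrc1 carried the rule. F13a1 was found in 209 of the 222 members and gave 51.4% of the UMIs that selected them. Mrc1 was found in 198 members and gave 42.2%. Cd163 was found in 69 members and Pf4 in 29. A member held a median of 10 marker UMIs, with a range from 3 to 76, and 185 members held both Mrc1 and F13a1. The levels of Mrc1 overlapped between the groups. In UMIs per 10000 UMIs of a mouse's members, Mrc1 lay at 19.5, 17.4 and 18.2 in the GF mice, at 14.5, 13 and 24.9 in the SPF mice and at 20.5, 16.9 and 12.8 in the CGF mice. In microglia the highest mouse reached 0.104. By region, Mrc1 in the PFC was at 16.2 to 19.2 in the GF mice, at 24.2 to 50.7 in the SPF mice and at 10.1, 85.9 and 20 in the CGF mice, which spanned both. Pf4 had 26 UMIs in SPF mouse 30 and 0 in the other SPF mice, 6, 8 and 12 in the GF mice and 3, 5 and 1 in the CGF mice. These values chose the members and are given without a test.

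Members close to the threshold differed widely in depth. The 26 members with exactly 3 marker UMIs ran from 583 to 19061 UMIs with a median of 4220.5, against 1919.5 over all members, and 9 of them had over 8000 UMIs while 8 were below the median of all members. Just outside, 119 nuclei with 2 marker UMIs had a median of 4850 UMIs, and 77 nuclei had 3 or more marker UMIs but too many of the other genes, with a median of 12624 UMIs. The 23 members of over 8000 UMIs held 38.8% of all member UMIs. They carried 6.83 UMIs of Mrc1 and F13a1 per 10000 and 1.22 of Stab1, whereas the 199 others carried 58.0 and 9.95. Stab1, a scavenger receptor, was not used by the rule. Syt1, a synaptic vesicle gene, went the other way, with 34.7 per 10000 in the deep members and 12.3 in the others. The label was therefore weak for the deep members, 10 of them from GF, 5 from SPF and 8 from CGF mice, and the results below are given without them where they changed.

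**Figure D1:**
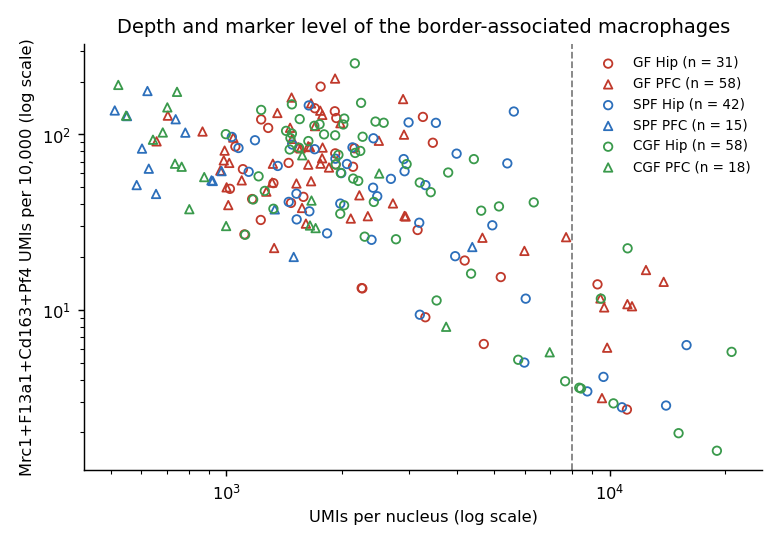
UMIs per nucleus (log scale) against the 4 rule markers per 10000 UMIs (log scale) for the 222 members, 1 symbol per nucleus, coloured by group and with circles for Hip and triangles for PFC. The dashed line at 8000 UMIs sets apart the 23 deep members, which lie at the low end of the marker axis.

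Outside the rule, the members looked like border-associated macrophages. In the comparison with microglia, of 8442 genes tested on sums per mouse, 393 (4.66%) were higher in the members and 632 (7.49%) lower (edgeR quasi-likelihood test, 18 sums of 9 mice). The test compares classes that were set by their RNA, and its p-values say only that a gap exceeds the spread between mice. A gene near 0 in 1 class passed the expression filter only through the other class and could be called in only 1 direction. The counts and medians of the lists here and below are therefore given as a description. Of 30 other border macrophage markers 23 could be tested, of which 21 were higher, 1 was lower and 1 did not pass. Their median log2 difference was 5.47, also with genes at 0 in microglia set to their lower bound, against -0.10 over all genes tested. Several of these markers were missing from the microglia. Ms4a4a, a membrane protein of alternatively activated macrophages, had 114 UMIs in the members and none in 7661740 microglial UMIs, which put it at least 419-fold higher when 3 UMIs over all microglia are taken as the floor. On the same floor Cd209b, a lectin, was at least 243-fold higher, Cbr2, a carbonyl reductase of resident macrophages, at least 228-fold and Lyve1, the hyaluronan receptor, at least 110-fold. Ms4a7 had 75 UMIs in the members and 2 in the microglia, a ratio of 414 with a 95% counting interval from 111 to 3478. This interval and the floors cover counting error only.

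Stab1 showed how the levels lay mouse by mouse. It ran from 3.73 to 9.52 UMIs per 10000 in the members of the 9 mice, with a median of 6.21, and from 0.492 to 1.58 in their microglia. The ranges did not overlap, and the log2 difference was 2.70 with a standard error of 0.15 (edgeR, adjusted p = 1.24e-13). Maf, a transcription factor of resident macrophages, was also found in microglia and differed by only 0.96 ± 0.13 (SE). Slco2b1, an organic anion transporter, was the listed marker that went the other way, with a log2 difference of -1.57 ± 0.16. Siglec1 had 25 UMIs in the members and 2 in microglia. Folr2, a folate receptor, was higher by 4.09 ± 0.72, and Lyz2, the macrophage lysozyme, by 5.35 ± 0.60. Dab2, an endocytic adaptor that was singled out after its values were seen, ran from 5.65 to 21.0 in the members and from 0.0531 to 0.291 in the microglia.

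Genes of the microglial programme were low. All 20 homeostatic microglia genes were tested. Of these 18 were lower, none was higher and 2 did not pass, beside 7.49% lower and 4.66% higher over all genes tested. Their median log2 difference was -3.38, or -3.18 with the gene at 0 in the members set to its bound. Cx3cr1, the fractalkine receptor, was 8.33-fold lower. Sall1, a transcription factor of microglial identity, had 3 UMIs in the members and 1077 in the microglia, and Tmem119 had 2 and 686. Slc2a5, a fructose transporter, had none in the members and was at least 8.49-fold lower. P2ry6 and Fcrls did not pass, with log2 differences of -0.01 ± 0.23 and -0.20 ± 0.26. The members were not free of the microglial rule genes, since 81 of the 222 held 3 or more UMIs of P2ry12, Csf1r and Inpp5d.

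The shared macrophage programme was mixed. Of 25 macrophage lineage genes 22 were tested, of which 3 were higher, 9 lower and 10 did not pass. The shares over all genes tested were 4.66% higher and 7.49% lower. Spi1, which encodes PU.1, lay at -0.37 ± 0.28 and did not pass. C1qc, a chain of complement C1q, was higher by 0.98 ± 0.30 and C1qa by 0.77 ± 0.26. A stricter limit on doublets left 27 members and moved the median of all genes to -4.43, so the sign of a gene under that setting is not read here. C1qa did not pass with thinned libraries (0.73) or without any 1 of SPF mouse 30 (0.34), CGF mice 18 (0.75) and 19 (0.52) and GF mice 5 (0.78), 6 (0.78) and 7 (0.69). Mertk, which clears dying cells, was lower by 1.92 on the log2 scale with a standard error of 0.14.

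Many uptake receptors were higher. Of 24 scavenger and endocytic receptors 20 were tested, with a median log2 difference of 2.89. Of these 12 were higher and 2 lower, beside 4.66% higher and 7.49% lower over all genes tested. The list shares 10 genes with the border macrophage markers, so it is no separate evidence. Msr1, the class A scavenger receptor, had 53 UMIs in the members and 6 in the microglia, and its log2 difference was 6.36 ± 0.58. Besides Mertk, the receptor Lrp1 was lower, at -1.18 ± 0.19.

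Lysosomal and lipid genes were divided. Of 26 such genes 22 were tested, with 4 higher and 4 lower, beside 4.66% higher and 7.49% lower over all genes tested. Plin2, which coats lipid droplets, was higher by 2.76 ± 0.49, the protease gene Ctsc by 2.19 ± 0.21 and Apoe, the lipid carrier, by 2.03 ± 0.23. Trem2, a lipid receptor of microglia, was lower at -1.62 ± 0.40 and Abcg1, a cholesterol exporter, at -1.46 ± 0.45. Of 15 iron and haem genes 14 were tested and 2 were higher: Cp, the ferroxidase ceruloplasmin, by 3.13 ± 0.21, and Blvrb, a biliverdin reductase, by 2.26 ± 0.25. None was lower.

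Over all genes tested against microglia, 4.66% were higher and 7.49% lower. Of 28 chemokines, cytokines and growth factors 9 were tested. Igf1, insulin-like growth factor, was higher by 3.07 ± 0.39 and Gas6, the ligand of Mertk, by 1.33 ± 0.24, whereas 3 were lower, among them Tgfb1, at -1.57 ± 0.30, and Pdgfb, at -1.19 ± 0.36. Of 10 glucocorticoid response genes 7 were tested and 2 were higher, Tsc22d3 by 1.65 on the log2 scale and Zbtb16 by 0.62. Zbtb16 turned to -0.41 without the deep members. Of 28 interferon response genes 13 were tested, 5 were higher and 1 lower. The higher genes included Ifi207 with 54 UMIs against 4, Ifi204 with 22 against 3 and Oas2 with 19 against 4. Ifngr2, a chain of the interferon-gamma receptor, was lower at -0.68 ± 0.22. Of 27 microbial sensing genes 11 were tested. Irak2, a kinase of the Toll-like receptor route, was lower at -1.40 ± 0.20, and none was higher, which is near the shares over all genes. Cd14, the co-receptor for lipopolysaccharide, lay at 1.04 ± 0.61 and did not pass.

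**Figure D2:**
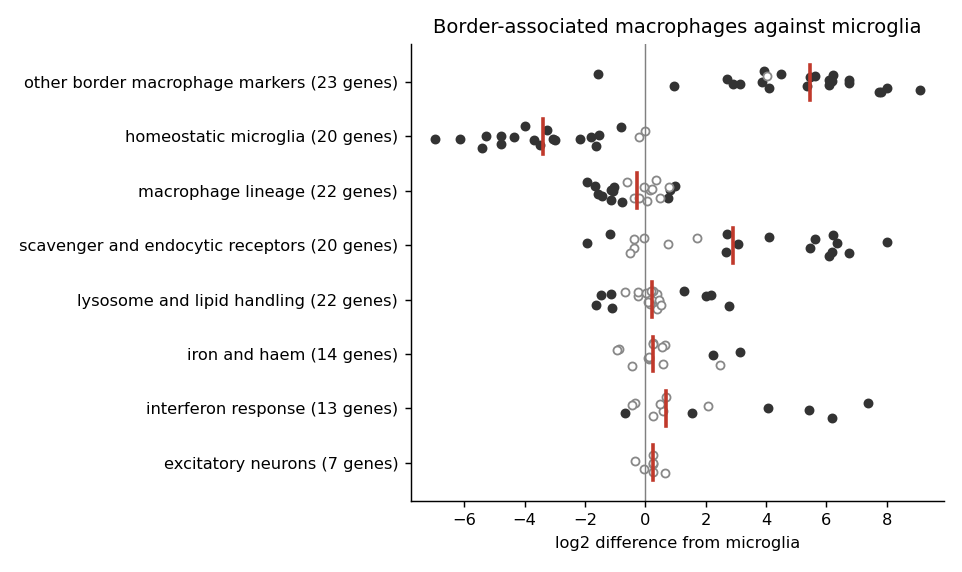
Log2 difference between members and microglia for each tested gene of 8 lists, with filled points for genes past the threshold, open points for the others and a red line at the list's median. Border macrophage markers and uptake receptors lie to the right, homeostatic microglia genes to the left, and excitatory neuron genes around 0.

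RNA of neurons, oligodendrocytes and their precursors was present in the members, and its pooled levels lay near those in microglia. Both classes were limited on listed genes (Slc17a7, Gad1, Gad2, Mog, Mag and Pdgfra), so the rules partly set this nearness. The members were also not alike, with Syt1 at 34.7 UMIs per 10000 in the deep members, 12.3 in the others and 16.4 in microglia. Oligodendrocyte genes gave 4.97 UMIs per 10000 in the members and 5.57 in microglia, and those of precursors 7.80 and 6.71. Genes of excitatory neurons gave 62.3 UMIs per 10000 in the members, 53.9 in microglia and 91.4 in neurons. Interneuron genes gave 4.74, 5.60 and 15.4. None of the 7 tested excitatory genes differed past the threshold between members and microglia, beside 12.1% over all genes tested. Fibroblast genes were higher in the members, at 1.78 against 0.419, and 3 of 4 tested passed, among them Col1a2, a collagen chain, with 16 UMIs in the members. Genes of monocytes, neutrophils and dendritic cells were at 1.17 against 0.386. Of these 10 genes 4 were at 0 in the members, but Cd209a, a dendritic cell lectin, had 10 UMIs against 0, Ccr2, the monocyte chemokine receptor, 12 against 12 in the larger microglial sum, and Zbtb46, a transcription factor of dendritic cells and the only gene of the list that was tested, was higher by 1.59 on the log2 scale. Astrocyte genes summed to 11.0 against 27.1, but this gap lay in 1 gene, the glutamate transporter Slc1a3, at 1.63 against 18.2, which was the 1 of 4 tested that was lower. Gpc5 was at 3.96 against 3.23 and Slc1a2 at 4.16 against 4.50. Of 8 T, NK and B cell genes 5 were at 0 in the members. The part of this RNA in the results was not tested.

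With both regions added, members did not differ past the threshold in their share of nuclei between the 3 groups. They were 0.156%, 0.195% and 0.181% of the nuclei of the GF mice, 0.118%, 0.161% and 0.122% in the SPF mice and 0.197%, 0.150% and 0.160% in the CGF mice. The groups overlapped, and an exact permutation test over the 3 groups gave p = 0.157 (two-sided, smallest possible p 0.00357). No pair of groups can go below 0.1 with 3 mice against 3.

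Set against microglia and with both regions added, members were most frequent in the CGF mice. There were 10.9, 11.0 and 10.8 members per 100 microglia in the CGF mice, 5.22, 7.02 and 6.03 in the GF mice and 4.92, 7.64 and 7.98 in the SPF mice. These CGF values over both regions did not overlap with either other group. The exact permutation test over the 3 groups gave p = 0.0214, and each pair with CGF reached the smallest p that 3 against 3 allows, 0.1 (0.15 after adjustment over the 3 pairs). When nuclei were thinned to 500 UMIs and the rules applied again, the p over the groups was 0.336. With libraries thinned to the lowest mean UMIs per nucleus and the rules applied again, it was 0.0214. In the Hip alone it was 0.0821, and the CGF mice (8.60 to 13.1) lay above the GF (1.03 to 8.33) and SPF mice (4.62 to 6.98). In the PFC alone it was 0.214, and the CGF mice (6.25 to 25) overlapped the GF (5.85 to 8.10) and SPF mice (6.67 to 13.2). Microglia of the PFC were fewer in the shallow libraries, with 147 in CGF and 141 in SPF against 873 in GF, and the part of depth in this ratio was not separated beyond the thinning.

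The regions went different ways in the groups. In the Hip, members were 0.0246%, 0.183% and 0.151% of nuclei in the GF mice, 0.172%, 0.244% and 0.147% in the SPF mice and 0.341%, 0.182% and 0.247% in the CGF mice. In the PFC they were 0.292%, 0.209% and 0.210% in the GF mice, and at most 0.110% in every SPF and CGF mouse. With PFC nuclei thinned to 500 UMIs the GF mice ran from 0.0994% to 0.178% and the SPF mice from 0.0525% to 0.0816%. The CGF mice then ran from 0.0132% to 0.110% and overlapped the GF mice. With all members, the 3 GF mice had a higher share in the PFC and the 6 others a higher share in the Hip. Without the deep members 7 of 9 mice were higher in the Hip, 1 GF mouse among them by 0.001 percentage points. At 500 UMIs 1 CGF mouse turned to -0.00771, and with thinned libraries 1 SPF mouse turned to -0.0109. Over the 9 mice the Hip minus PFC difference was 0.0570 ± 0.160 percentage points (SD), with p = 0.316 in an exact sign-flip permutation test. The mean was -0.118 for GF, 0.114 for SPF and 0.175 for CGF, and an exact permutation test over the groups gave p = 0.0143. With nuclei thinned to 500 UMIs this p was 0.0607, with libraries thinned to the lowest mean UMIs per nucleus 0.0786, and without GF mouse 5, whose Hip library held 2 members, 0.0714. Without that mouse the GF mean was -0.0430 and the mean over the other 8 mice 0.0976. The deep PFC libraries were those of the GF mice, whose Hip libraries were shallower than those of the SPF mice, as given above. Of the GF members 65.2% came from the PFC, against 26.3% of the SPF and 23.7% of the CGF members, and the gene comparisons below join regions in these proportions.

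**Figure D3:**
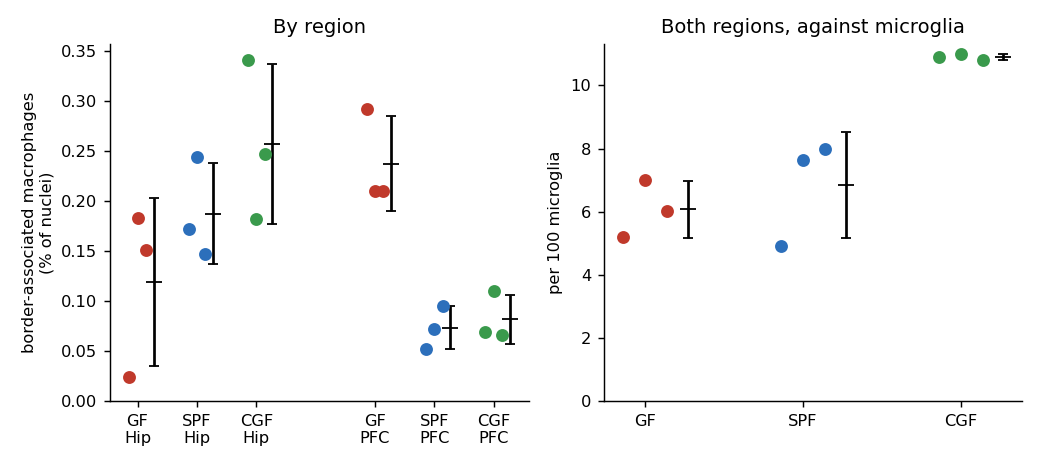
Left, members as a percentage of nuclei in each mouse by region. Right, members per 100 microglia in each mouse over both regions. Points are mice and bars are mean ± SD (n = 3). GF mice are highest in the PFC, and the CGF mice lie together near 11 per 100 microglia.

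Between the groups, the members of GF mice differed from both others in Fkbp5, a co-chaperone of the glucocorticoid receptor that is itself induced by glucocorticoids. In UMIs per 10000, its level in the members was 12.9, 8.30 and 8.57 in the GF mice, 0.413, 0.532 and 1.19 in the SPF mice and 0.392, 0.661 and 1.75 in the CGF mice. All GF mice lay above all other mice. The GF mice were 14.7-fold above SPF (log2 difference 3.88 ± 0.53 SE, edgeR adjusted p = 0.00318) and 10.0-fold above CGF (3.33 ± 0.48, adjusted p = 0.00564), whereas CGF and SPF did not differ past the threshold (0.55 ± 0.62). The size of these folds rests on few UMIs. Fkbp5 was found in only 10 Hip and 1 PFC members of SPF mice and in 13 and 3 of CGF mice. Mitochondrial UMIs, a sign of RNA quality, differed between the same groups. Over all barcodes they made up 0.645% to 1.10% in the GF Hip libraries and 0.0770% to 0.471% in the other Hip libraries, but 0.359% to 0.594% in the GF PFC libraries and 1.28% to 3.22% in the other PFC libraries. Their part in the differences of GF members was not tested. Fkbp5 was also higher in the GF mice within each region. In the Hip the members of the GF mice held 16, 6.75 and 5.02 UMIs per 10000, the first from only 2 members, and those of the other 6 mice at most 1.82. In the PFC the GF mice held 12.7, 9.66 and 10.4 and the others at most 3.12. Fkbp5 was found in 67.7% of GF Hip members and 84.5% of GF PFC members, against 23.8% and 6.67% in SPF and 22.4% and 16.7% in CGF. These raw rates depend on depth. The median UMIs of PFC members were 1683 in GF, 737 in SPF and 837.5 in CGF, and those of Hip members 1923, 2447 and 2187.5. In the Hip alone the log2 difference from SPF was 3.35 (adjusted p = 0.0473). Without the deep members it was 3.92, and in the 17 settings in which it was tested it lay between 3.06 and 4.38 and passed. Against CGF the adjusted p rose to 0.0844 without CGF mouse 18.

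Microglia showed the same direction. Their Fkbp5 lay between 7.14 and 8.69 UMIs per 10000 in the GF mice and between 1.29 and 2.20 in the others, a log2 difference from SPF of 2.07 ± 0.25. The difference in the members exceeded that in microglia by 1.80 ± 0.52, which did not pass over all genes (edgeR interaction, adjusted p = 0.77). In neurons the levels were lower and closer, with means of 0.647 ± 0.00487 (SD, n = 3) for GF, 0.583 ± 0.0509 for SPF and 0.502 ± 0.123 for CGF. Of 10 glucocorticoid response genes 3 could be tested between the groups, and Fkbp5 alone passed. Over all genes tested 0.244% were called against SPF and 3.95% against CGF. Nr3c1, the glucocorticoid receptor, differed from SPF by -0.30 ± 0.39 and Zbtb16, another induced gene, by 0.81 ± 0.45.

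**Figure D4:**
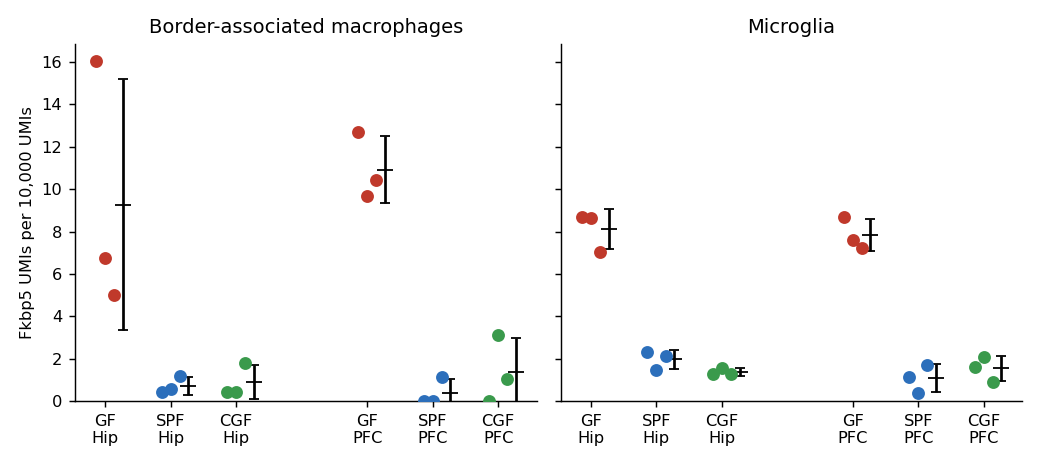
Fkbp5 UMIs per 10000 UMIs in the members (left) and microglia (right) of each library, by region and group. Points are libraries and bars are mean ± SD (n = 3). GF libraries are above all others in both regions and both cell types.

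Beside Fkbp5, 4 genes passed between GF and SPF members, so that 5 of 2049 tested (0.244%) were called, 4 higher (0.195%) and 1 lower (0.0488%). Without the deep members 15 were called, of 1014 genes then tested. Without 1 of CGF mouse 18, GF mice 5 and 7 and SPF mouse 30 there were 3 calls, and without SPF mouse 31 or 32 there were 2. Nrros, which anchors latent TGF-beta on macrophages, was at 4.06, 4.52 and 4.74 UMIs per 10000 in the GF mice, at 0.827, 1.20 and 0.795 in the SPF mice and at 2.35, 1.45 and 1.26 in the CGF mice. It was 4.81-fold above SPF (2.27 ± 0.36, adjusted p = 0.0112), and 1.17 ± 0.22 higher on the log2 scale in GF microglia. It did not pass with 5 marker UMIs as the minimum (adjusted p = 0.0732), with thinned libraries (0.196), in the Hip alone (0.0786) or without any 1 of GF mouse 7 and the 3 SPF mice.

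The other called genes differed in microglia as well. Gm42418, a transcript that shares sequence with ribosomal RNA, was at 3.36, 3.78 and 4.64 in the GF mice and between 33.5 and 107 in the SPF mice, a log2 difference of -3.91 ± 0.47. By region, SPF members held 362 to 756 in the PFC and 10.3 to 42.1 in the Hip, and GF Hip members 2.29 to 5.85. In the Hip alone the difference was -2.11 and did not pass (edgeR adjusted p = 0.248), and in the PFC alone it was -7.26. It differed by -3.67 ± 0.39 in microglia, and in neurons its mean was 1.49 in GF and 37.6 in SPF mice. Malat1, a nuclear RNA, was higher by 1.12 ± 0.20 in the GF members, by 0.88 in the Hip alone and by 1.43 with a region term, neither of which passed, and neurons held 673 ± 36.5 per 10000 in GF and 301 ± 6.67 in SPF mice. Cck, a neuropeptide made by neurons, was higher by 2.12 ± 0.36 in the members (1.66 in the Hip alone, which did not pass) and by 1.43 ± 0.20 in microglia. Excitatory neuron genes as a whole lay between 58.5 and 67.6 per 10000 in GF members and between 43.0 and 65.9 in SPF members. All 7 tested lay above 0, with a median log2 difference of 0.50 beside -0.04 over all genes, and none passed. The 1 tested interneuron gene lay at 0.73 and did not pass. Red cell genes lay between 1.79 and 4.34 per 10000 in GF members and between 0 and 0.62 in SPF members. Genes of endothelial cells lay at 0.202 to 0.315 in GF members and at 0.665 to 0.827 in SPF members. Genes of mural cells lay at 0 to 0.42 and 0.532 to 0.62. The endothelial list, which includes the rule gene Flt1, held only 30 UMIs over all members and the mural list 28, so few UMIs set these ranges. Genes of oligodendrocytes lay at 2.38 to 4.83 in GF members and at 4.79 to 9.92 in SPF members. The part of other cells' RNA in these differences was not tested.

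The named border macrophage genes themselves did not pass between GF and SPF mice. Of 30 markers 11 were tested and none was called. Over all genes tested 0.244% were called, so this count says little about the markers. Their median log2 difference was 0.16, against -0.04 over all genes tested. Stab1 differed by 0.56 ± 0.38, and Ms4a6c by 2.34 ± 0.53 with an adjusted p of 0.0836. None of the 15 tested macrophage lineage genes passed, and neither did the 9 lysosome and lipid genes, beside the same 0.244% over all genes. SPF mouse 30 stood apart in several of these genes. Its members held 7.03 UMIs of C1qa and 58.1 of Apoe per 10000, against 0.665 and 2.19 of C1qa and 7.85 and 17.9 of Apoe in the other SPF mice.

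More genes were called between GF and CGF than between GF and SPF members, but this order rests on single mice. It turned without CGF mouse 18, with 1 call against CGF and 3 against SPF. The SPF members were also fewer, 57 against 76 in CGF. Against CGF, 81 of the same 2049 genes (3.95%) were called, 55 higher (2.68%) and 26 lower (1.27%). Without CGF mouse 18 the count was 1, without CGF mouse 17 or 19 it was 45 or 38, and without GF mouse 5, 6 or 7 it was 18, 25 or 12. Without SPF mouse 30 it was 128, of 2380 genes then tested, since SPF mice enter through the expression filter and the shared spread. Without the deep members it was 48, of 1014 genes then tested. The comparisons with SPF and with CGF use the same GF mice. C1qa lay at 4.76, 5.46 and 6.25 UMIs per 10000 in the GF mice and at 0.392, 0.661 and 1.26 in the CGF mice, a 6.81-fold difference (2.77 ± 0.63, adjusted p = 0.0260), and it was higher by 2.48 ± 0.31 in GF microglia. In the members it did not pass without CGF mouse 17 or 18 or without any 1 GF mouse (edgeR adjusted p from 0.0523 to 0.144). Fcer1g, the signalling chain of Fc receptors, was higher by 2.22 ± 0.50, Apoe by 2.12 ± 0.54, Ms4a6c by 1.81 ± 0.47 and Mertk by 1.25 ± 0.32. These 4 passed with a region term, in a fit that counted both libraries of a mouse as separate samples. In the Hip alone these 4 were higher by 2.02, 2.47, 2.20 and 1.70 in the same order and did not pass. C1qa was higher by 3.29 there and passed. Apoe also passed in the PFC alone, at 2.95, where only 84 genes were tested and adjusted for. C1qb and C1qc were higher by 2.52 ± 0.84 and 1.95 ± 0.67 and did not pass. Of the 15 tested lineage genes 3 were higher and none lower, and of the 11 tested border markers 1 was higher.

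Against CGF 2.68% of all genes tested were higher and 1.27% lower, beside which the counts of lists here stand. Of 7 tested excitatory neuron genes 1 was higher against CGF, with a list median of 0.08, and the 1 tested interneuron gene did not pass. Genes of oligodendrocyte precursors lay at 3.03 to 6.72 per 10000 in GF members and at 10.6 to 11.8 in CGF members, without overlap. Their 3 tested genes had a median log2 difference of -1.30 and the 2 tested oligodendrocyte genes one of -1.40, beside -0.06 over all genes, and none of these 5 passed. The part of this RNA in the differences from CGF was not tested. All 4 ribosomal RNA linked transcripts were lower, Gm42418 by 3.95 on the log2 scale, AY036118 by 3.43 and Cmss1 by 2.94. Pcp4, a calmodulin regulator of neurons, was higher by 3.39 ± 0.61, and by 1.54 ± 0.26 in microglia. Pcsk1n, a neuroendocrine protein, was higher by 2.45 ± 0.52, and Shisa6, which binds glutamate receptors, was lower at -2.74 ± 0.52. St8sia4, a polysialyltransferase, was lower at -3.66 ± 0.63 in the members and at -0.89 ± 0.27 in microglia. Sgcz, a sarcoglycan, was higher by 2.38 ± 0.41 over both regions, but by only 0.27 in the Hip alone, 1.32 in the PFC alone and 1.19 with a region term, none past the threshold. Its levels in PFC members were 19.5, 14 and 11.8 in the GF mice and 7.54, 0 and 8.42 in the CGF mice. In Hip members they were 0, 4.05 and 0.295 in the GF mice and 1.55, 2.02 and 1.93 in the CGF mice, which overlapped. In the Hip alone Gm42418 lay at -1.68, Shisa6 at -1.28 and Cmss1 at -1.04 and none passed, whereas Pcp4 was higher by 3.86 and Pcsk1n by 3.15 and both passed. In the PFC alone Gm42418 lay at -7.73 and Cmss1 at -6.38, and both passed among the 84 genes tested there.

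Between CGF and SPF members no gene passed in edgeR (0%), with 162 of 2049 at an unadjusted p below the same 0.05, and 6 passed in DESeq2. C1qa lay at -1.87 ± 0.67 and Apoe at -1.60 ± 0.54, neither past the threshold. The test of whether the GF and SPF difference itself differed between members and microglia called no gene of 8442 in edgeR (0%) or DESeq2, with 459 at an unadjusted p below 0.05 in edgeR, and 1 without the deep members. C1qa differed from SPF by 2.49 ± 0.30 in GF microglia and by 0.90 ± 0.56 in the members, and this gap did not pass (edgeR adjusted p = 0.77). In the main fit no gene difference between GF and SPF mice was thus shown to be particular to the members. Without the filter on low counts 10 genes were called.

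Lyve1 and MHC class II UMIs, which mark the main forms of these cells, were each found in few members. Lyve1 was found in 26 of 222 and Cd74, H2-Aa, H2-Ab1 or H2-Eb1 in 29, and 2 members held both. Lyve1 UMIs were found in 0 of 3007 microglia, which allows a share of nuclei with a UMI of up to 0.0998% and says nothing of how many express the gene at this depth, and in 0.0477% of neurons at a median depth of 8113 UMIs. MHC class II UMIs were found in 1.76% of microglia and 0.856% of neurons. The median depth was 1772 UMIs in microglia and 1919.5 in the members. They were also concentrated, since the 5 members with the most held 77.1% of 218 UMIs. Of the genes that present antigen, Cd74, the invariant chain, was higher in the members than in microglia by 3.93 ± 1.21 on the log2 scale, and H2-Ab1 did not pass at 2.51 ± 0.96. GF mouse 7 held 86 of 116 Cd74 UMIs.

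The share of members with Lyve1 was highest in the GF mice. It was 16%, 25% and 18.8% in the GF mice, 13.3%, 4.35% and 15.8% in the SPF mice and 3.70%, 0% and 4% in the CGF mice. No 2 groups overlapped in these raw shares, and the exact permutation test over the groups gave p = 0.00357, the smallest it can give. Each member was also thinned to 500 UMIs in a single random draw. This equalises depth among the members but not the depth at which they were selected. The mean was then 8.92% ± 0.794 (SD, n = 3) for GF, 3.98% ± 3.51 for SPF and 0% for CGF (exact permutation test over the groups, p = 0.0143). These shares rest on 8, 2 and 0 members, and without any single GF mouse the p was 0.05. By region and without thinning, Lyve1 was found in 7 of 31 GF Hip members and 11 of 58 GF PFC members. It was found in 5 of 42 and 1 of 15 SPF members and in 2 of 58 and 0 of 18 CGF members. The PFC members of SPF and CGF mice were shallower than those of GF mice. Over the group sums Lyve1 was 10.1-fold higher in GF than in CGF members, with a 95% counting interval from 2.46 to 88.7. Lyve1 was too low to be tested as a gene between the groups.

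The share with MHC class II UMIs did not differ past the threshold. The raw mean was 15.5% ± 5.56 for GF, 15.3% ± 9.89 for SPF and 8.99% ± 5.39 for CGF. Thinned to 500 UMIs they were 8.63% ± 6.17, 5.43% ± 1.17 and 3.80% ± 3.71 (exact permutation p = 0.518 over the groups).

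**Figure D5:**
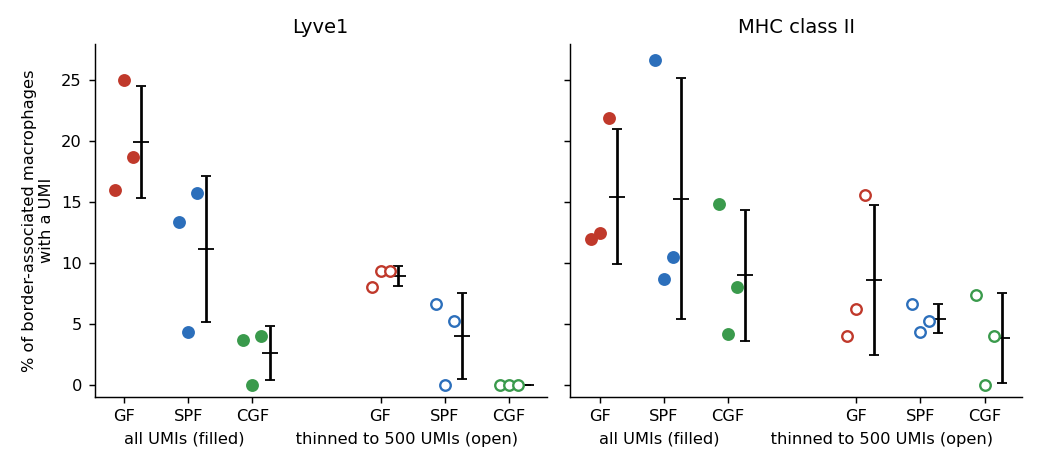
Percentage of members with a UMI of Lyve1 (left) or MHC class II genes (right) in each mouse, from all UMIs (filled) and after thinning each nucleus to 500 UMIs (open). Bars are mean ± SD (n = 3). Lyve1 is highest in GF and near 0 in CGF mice, and the MHC class II shares overlap.

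Between Hip and PFC members, 53 of 2020 genes (2.62%) were called over 16 libraries with at least 5 members, 30 higher in the Hip (1.49%) and 23 lower (1.14%). Without CGF mouse 17, 18 or 19 there were 27, 20 or 12 calls. Without SPF mouse 32 there were 34, of 3379 genes then tested, and without GF mouse 7 there were 91 of 3184. With the mouse as a block, which pairs the regions of an animal, 31 were called. With a minimum of 5 marker UMIs only Ttr remained. Ttr, transthyretin of the choroid plexus, had 387 UMIs in the Hip members and none in the PFC members, at least 62.5-fold with 3 UMIs over all PFC members as the floor. GF mouse 6 held 201 of these UMIs, and without its Hip library, left out after these values were seen, the bound was 33.2-fold. It was found in 66.4% of Hip members and in 59.8% of Hip microglia, and in 0% and 0.172% in the PFC, so it was shared by cells of both types in the Hip libraries. Stab1 was lower in the Hip by 1.32 on the log2 scale with a standard error of 0.36 (edgeR adjusted p = 0.0487), and the ranges of the libraries overlapped. Of the other 12 tested border markers none passed. Zbtb20, a transcription factor of hippocampal neurons, was higher in the Hip by 1.94 ± 0.36, and Lsamp, a neuronal adhesion protein, by 2.27 ± 0.44. Without the deep members 35 genes were called, of 1189 then tested. The 4 ribosomal RNA linked transcripts were lower in the Hip over all groups. For Gm42418 the PFC libraries of SPF and CGF mice held 253 to 900, whereas in GF mice 6 and 7 the Hip was higher, at 5.85 and 5.61 against 1.97 and 4.13. Fkbp5 differed by -0.48 ± 0.46 and did not pass.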

How the data were processed

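Nuclei from frozen Hip and PFC of 9 mice were profiled with droplet 3' RNA-seq. The authors deposited, per library, raw UMI counts of 30905 genes by nucleus, made with Cell Ranger (3.1.0 in the file headers) on mm10 per the labels. How strand and ambient RNA were treated is not given in the sources used here. From 139924 barcodes, 138000 nuclei with at least 200 genes and at most 10% mitochondrial UMIs were kept. No doublet caller was run: the limit on other cells' genes stood in for it. The members and gene lists were chosen with earlier results of these data known.

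Counts were summed per mouse and cell type and tested with edgeR 4.0.16 (filterByExpr, TMM, quasi-likelihood, Benjamini-Hochberg at 0.05, all 3 groups in 1 fit, limma 3.58.1 and DESeq2 1.42.0 for alternatives, R 4.3.3). The 16 genes of the rules were left out before adjustment. ± after a log2 difference is the standard error. Levels are UMIs per 10000 UMIs of the summed nuclei. The regional comparison used libraries with at least 5 members. Shares were compared over mice with exact permutation tests in Python 3.11.15 (scipy 1.17.1), two-sided, and counting intervals are exact 95% intervals that cover counting error only. The scripts were tested on simulated data.

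Named were list members with the 3 largest and 2 smallest differences, a set of standard macrophage and microglia genes, and per comparison the 10 largest rises and 10 largest falls among called genes whose groups do not overlap. Replicate numbers name the mouse, so they pair cell types and regions of an animal. Deviations from the group means correlated between members and microglia at -0.067 to 0.284 and between regions at -0.318 to 0.157. Alternatives were another tool, no filter, other member rules, thinned UMIs, single regions, the mouse as a block and each mouse left out. Regional sums with a region term counted both libraries of a mouse as separate samples, except where the mouse was a block. Members of over 8000 UMIs were left out, and single regions thinned, as settings chosen after seeing the data. Clec7a is not analysed here. Some genes of the lists are counted but not reported by name here.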

Additional observations from a re-analysis of the deposited data

Results flagged for a closer look

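The difference in the share of members between Hip and PFC was not the same in the 3 groups. The mean difference, in percentage points, was -0.118 for GF, 0.114 for SPF and 0.175 for CGF (3 animals each), negative in the 3 GF mice and positive in the 6 others with all members, and the exact permutation test over the groups gave p = 0.0143. Thinning nuclei to 500 UMIs gave 0.0607, and leaving out GF mouse 5 gave 0.0714, with a GF mean of -0.0430. The signs did not hold in every setting: 1 GF mouse was at 0.001 without the deep members, 1 CGF mouse at -0.00771 at 500 UMIs and 1 SPF mouse at -0.0109 with thinned libraries. Depth differed between the same groups: GF libraries were the deepest in the PFC and were shallower than the SPF libraries in the Hip. The part of depth was not tested beyond the thinning.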

How the results depend on the processing

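For named genes, 1396 values under the alternatives kept direction and side of the threshold, 325 lost the threshold and 10 turned, all in the comparison with microglia. Under the stricter limit on doublets, which left 27 members and moved the median of all genes to -4.43, Adgre1 turned to -0.50, Apoe to -0.12, C1qa to -0.41, C1qc to -3.58, Ctsc to -0.025, Gas6 to -0.39, Tsc22d3 to -3.88 and Zbtb16 to -6.23. Of these 8 values only that of Zbtb16 lay below the shifted median. Zbtb16 was also -0.41 without the deep members and -0.32 with microglia chosen without a limit on other genes. The cause was not tested.

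Counts of called genes moved with the settings. The number of genes tested moved as well. Against microglia there were 4728 of 6820 genes tested under the stricter limit and 616 of 5184 with thinned libraries. Between GF and SPF there were 11 in DESeq2 and 52 of 16605 genes without a filter. There were 3 of 1236 with 5 marker UMIs and 15 of 1014 without the deep members. Single regions gave 1 of 1215 in the Hip and 13 of 84 in the PFC, and regional sums 21 of 1548. Between GF and CGF there were 187 of 16605 genes without a filter and 13 of 1236 with 5 marker UMIs. The stricter limit gave 2 of 7, thinned libraries 32 of 607 and leaving out the deep members 48 of 1014. Here the Hip gave 19 of 1215, the PFC 14 of 84 and regional sums 50 of 1548. Between CGF and SPF there were 6 in DESeq2, 37 of 16605 without a filter and 1 of 1215 in the Hip. For the interaction there were 10 of 21349 without a filter and 1 of 8539 without the deep members. Between Hip and PFC there were 97 in DESeq2 and 81 of 16581 without a filter. There was 1 of 2045 with 5 marker UMIs and 35 of 1189 without the deep members, and the stricter limit could not be fitted.

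With the mouse as a replicate block, 919 genes were called against microglia, 0 in the interaction and 31 between the regions. Regional sums with the block in limma voom tested 1548 genes. They gave 34 calls between GF and SPF, 98 between GF and CGF and 0 between CGF and SPF.

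The share of members in GF minus SPF mice turned to -0.0072 percentage points under the stricter limit, -0.0682 in the Hip, -0.0394 in the Hip at 500 UMIs and -0.0286 in the Hip with thinned libraries. GF minus CGF was -0.0101, -0.137, -0.0631 and -0.103 in the same order, and -0.0084 with thinned libraries. In the PFC at 500 UMIs, CGF minus SPF was -0.0183, and -1.67 per 100 microglia. The exact permutation p over the groups for the share was 0.025 in the PFC, 0.0214 there with thinned libraries and 0.1 there at 500 UMIs. For members per 100 microglia it was 0.146 under the stricter limit, 0.336 at 500 UMIs, 0.0821 in the Hip and 0.214 in the PFC. At 500 UMIs it was 0.129 in the Hip and 0.814 in the PFC. With thinned libraries it was 0.596 in the PFC and 0.0214 over both regions. For Hip minus PFC it was 0.0607 at 500 UMIs and 0.0786 with thinned libraries.

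Leaving out 1 mouse at a time gave 819 to 998 calls against microglia, 2 to 4 between GF and SPF, 1 to 128 between GF and CGF, 0 to 1 between CGF and SPF, 0 to 0 in the interaction and 12 to 91 between the regions. For the share, GF minus CGF ran from -0.00075 to 0.0228. For MHC class II, GF minus SPF ran from -0.301 to 5.51 and CGF minus SPF from -3.43 to 0.278. The exact permutation p over the groups ran from 0.0107 to 0.0714 for Hip minus PFC and from 0.00357 to 0.05 for Lyve1.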
